A study of Mus musculus with 9 samples.

Results

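The tetraspanin genes Cd81, Cd9, Cd63, Cd82, Cd53, Cd37 and Cd151 were followed through the cell classes of mouse gut tissue, in colon and small intestine and under changed microbiota or colitis. They are 7 of the 31053 genes in the deposited count tables and were taken by gene symbol. The single cells came from the lamina propria of male C57BL/6 mice 7 to 8 weeks old and carry the label CD11b+, the integrin subunit of myeloid cells. The libraries were those of germ-free (GF) colon (wild type, 2 libraries), antibiotics colon (wild type, ampicillin, vancomycin, neomycin and metronidazole in the drinking water, 1 library), DSS colon (wild type, 2.5% dextran sulfate sodium in the drinking water for 7 days, which injures the epithelium, 1 library), the library labelled Nlrc4-deficient DSS colon (Nlrc4 deficient and given DSS, 1 library), normal small intestine (wild type, 2 libraries) and specific pathogen-free (SPF) colon (wild type, untreated, 2 libraries). The labels do not say which mice each library holds, and the study describes pooled mice for its single cell samples, so all p-values below measure the spread between these libraries, which may be technical.

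Tetraspanins are small proteins that cross the plasma membrane several times and gather integrins, immunoglobulin family receptors and one another into membrane patches. CD81 is a receptor by which hepatitis C virus enters human hepatocytes. CD9 binds integrins and is needed on the mouse egg for fusion with sperm. CD63 sits in late endosomes, lysosomes and exosomes, CD82 was described as a metastasis suppressor, CD53 and CD37 are restricted to leukocytes, and CD151 binds the laminin-binding integrins of epithelium and endothelium.

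Each value is a count of unique molecular identifiers (UMIs), in which 1 UMI stands for 1 captured RNA molecule tagged near its 3' end. Of 37123 deposited barcodes, 31759 with at most 15% mitochondrial UMIs and at least 200 genes were kept, at medians of 3342 to 12322.5 UMIs per kept cell in the 9 libraries, and 26085 of them entered 15 classes by marker genes. A class is called "X-like" because no protein was measured, and none of the tetraspanins was a class marker. The libraries held 13243317 to 64453601 UMIs over all barcodes, and 145 barcodes occurred in more than 1 library. The CD11b label was not matched by all cells, since the kept cells included 4507 B cell-like, 2881 plasma cell-like, 2610 T cell-like and 1066 epithelial-like cells beside 3367 resident macrophage-like and 3548 monocyte-like cells. Itgam, which encodes CD11b, was found at 130, 129 and 180 CPM (UMIs of a gene per 1000000 UMIs of the cells summed) in the library labelled Nlrc4-deficient DSS colon, antibiotics colon and DSS colon, and at 52.1 to 123 CPM in the others. Nlrc4 was at 19.9 CPM over all kept cells of the library labelled Nlrc4-deficient DSS colon, against 10.8 CPM in DSS colon, 16.5 and 7.54 in GF colon, 6.32 in antibiotics colon, 2.42 and 9.97 in small intestine and 8.98 and 5.55 in SPF colon. The deleted part of the gene is not given in the sources used here, so 3' tags cannot check that label.

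Cd81 had its highest mean over libraries in resident macrophage-like cells, at 337 ± 198 CPM (SD, n = 9). It reached high levels also in cDC1-like, plasma cell-like and B cell-like cells. Outside the leukocytes, Cd81 had means of 119 CPM in epithelial-like and 99.8 CPM in fibroblast-like cells. In resident macrophage-like cells it was at 113 CPM in DSS colon, 89.6 in the library labelled Nlrc4-deficient DSS colon, 495 and 181 in GF colon, 418 in antibiotics colon, 492 and 369 in small intestine and 210 and 662 in SPF colon. The lowest of these values were those of both DSS libraries, and both GF and both SPF libraries lay far apart within their own group. In cDC1-like cells, the dendritic cells that present antigen of dead cells, Cd81 was at 67.5 to 234 CPM with a median of 105. B cell-like cells held a narrow range of 65.4 to 104 CPM over 9 libraries, and plasma cell-like cells 90.7 to 166 CPM over 8. The level was low in monocyte-like cells, at 5.69 to 19.7 CPM, and in cDC2-like cells, the conventional dendritic cells that prime helper T cells, at 1.92 to 14.4 CPM, which did not overlap with any resident macrophage-like or cDC1-like value.

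The share of cells with at least 1 Cd81 UMI had a median over libraries of 57.0% for resident macrophage-like, 45.5% for cDC1-like, 73.2% for plasma cell-like and 25.04% for B cell-like cells. After thinning of each cell to 1000 UMIs, with shallower cells left out, the shares were 28.7%, 8.53%, 9.93% and 8.07%. Monocyte-like cells, in which free RNA adds UMIs too, had 4.34% before and 0.727% after thinning, lower than each of these classes. Median depths per cell were 4794 UMIs for resident macrophage-like, 18459.5 for cDC1-like, 16676 for plasma cell-like, 3310 for B cell-like and 8128.5 for monocyte-like cells. Ordered by mean level, resident macrophage-like cells stood above cDC1-like cells in 8 of 9 libraries (exact two-sided sign-flip permutation test, adjusted p = 0.0469 over 84 neighbouring pairs of all tetraspanins). The classes that followed, from cDC1-like through epithelial-like, plasma cell-like and fibroblast-like to B cell-like, did not differ from their neighbour beyond the spread between libraries. The p of 0.0469 is shared by all 14 neighbouring pairs that differed, and leaving out any 1 library left none of them past the threshold.

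**Figure D1:**
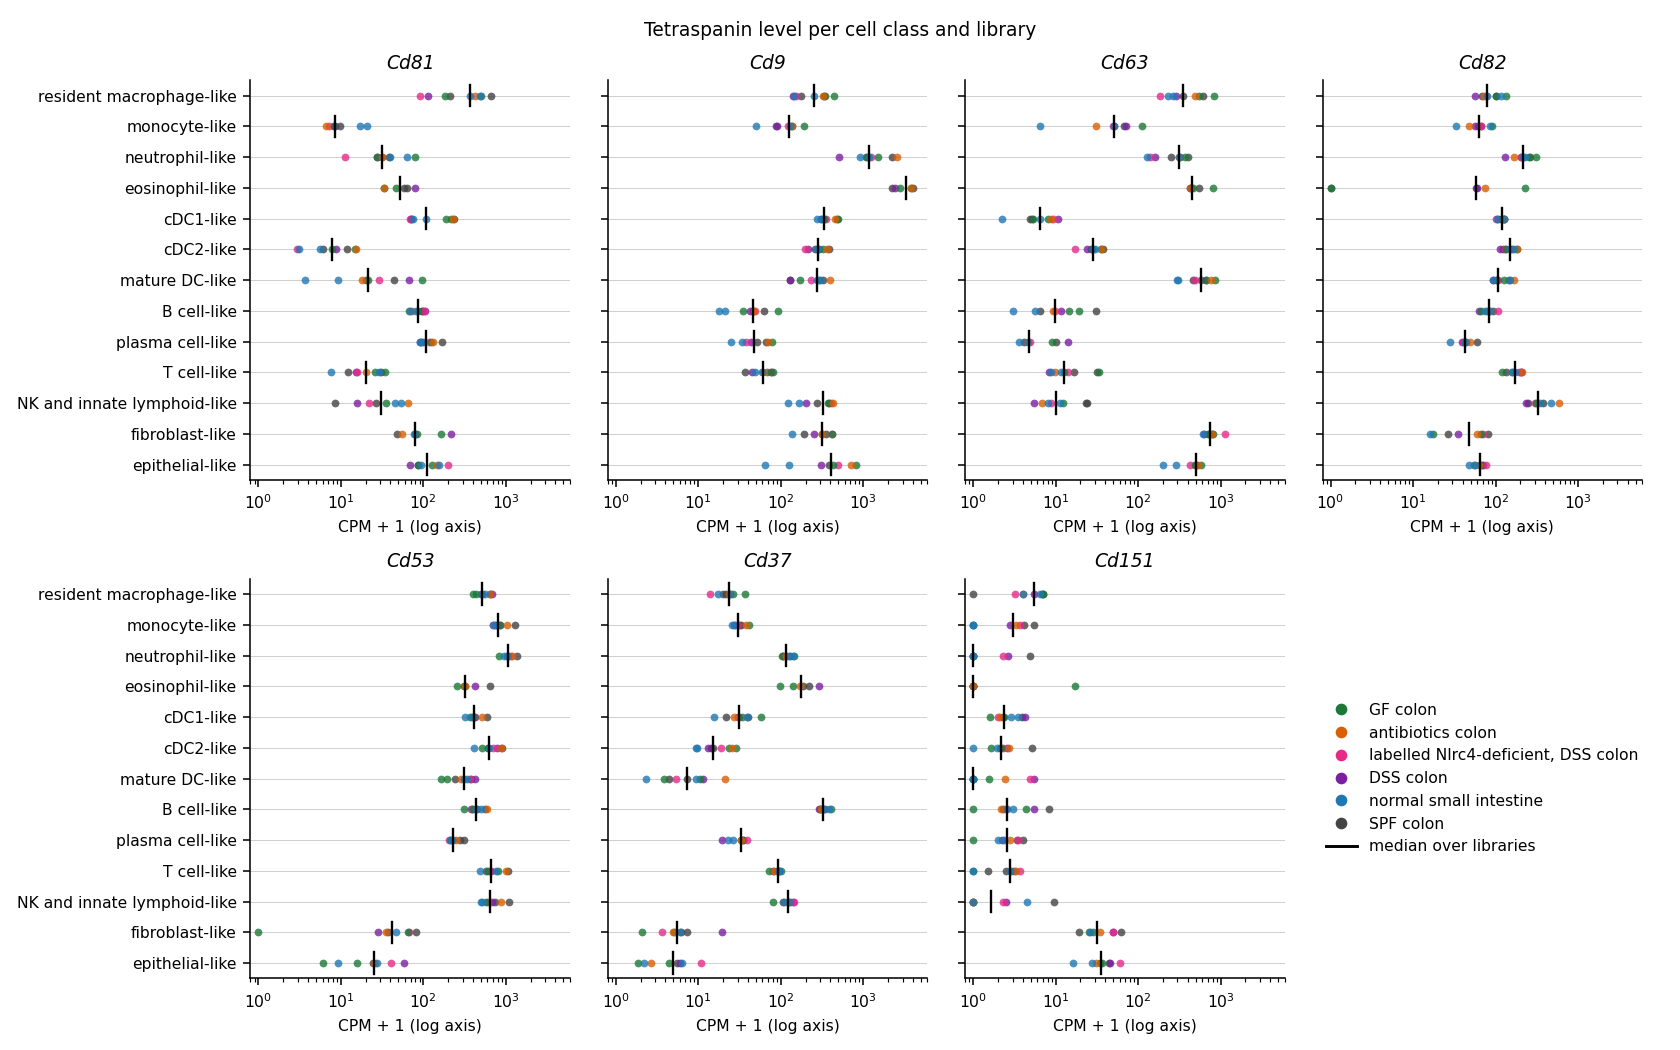
Level of each tetraspanin (CPM + 1 on a log axis) in 13 classes, with 1 point per library coloured by condition and a bar at the median over libraries. Cd81 spans 89.6 to 662 CPM in resident macrophage-like cells and stays at or below 19.7 CPM in monocyte-like cells, Cd53 is at 163 CPM or more in every leukocyte class, and Cd151 reaches 61.7 CPM in fibroblast-like and 58.8 CPM in epithelial-like cells.

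Cd9 showed another order, led by granulocytes among the classes with at least 20 cells in more than 1 library. In eosinophil-like cells it was at 2405 CPM in DSS colon, 2821 and 3787 in GF colon, 3779 in antibiotics colon and 2233 and 4023 in SPF colon. In neutrophil-like cells it was at 506 CPM in DSS colon, 1227 in the library labelled Nlrc4-deficient DSS colon, 1119 and 1494 in GF colon, 2574 in antibiotics colon, 903 and 1168 in small intestine and 1077 and 2215 in SPF colon. Neutrophil-like cells were the next class after eosinophil-like cells and stood above epithelial-like cells in 8 of 8 libraries (exact sign-flip permutation test, adjusted p = 0.0469). Dendritic cell classes lay between 128 and 491 CPM, monocyte-like cells at 48.7 to 192 CPM, T cell-like cells at 35.5 to 79.2 CPM and B cell-like cells at 16.6 to 91.5 CPM. Mature DC-like cells exceeded monocyte-like cells, and these exceeded T cell-like cells, each in 8 of 8 libraries and at the same adjusted p of 0.0469 in that exact test.

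Cd63, the lysosome and exosome tetraspanin, separated the dendritic cell classes from each other. Mature DC-like cells, chosen by markers such as Ccr7 and Fscn1, held 665 CPM in DSS colon, 491 in the library labelled Nlrc4-deficient DSS colon, 659 and 864 in GF colon, 760 in antibiotics colon, 302 and 297 in small intestine and 581 and 458 in SPF colon. cDC2-like cells held 16.0 to 36.8 CPM and cDC1-like cells 1.26 to 9.80 CPM, so that the 3 ranges did not overlap. Among classes with at least 20 cells in a library, fibroblast-like cells had the highest mean, 773 ± 167 CPM (SD, n = 8). The 26 mast cell and basophil-like cells, under 20 in each library, held 2564 CPM when pooled (493 UMIs, exact Poisson 95% interval 2342 to 2800, counting error only), with a Cd63 UMI in all 26. Resident macrophage-like cells, at 185 to 827 CPM, exceeded neutrophil-like cells, at 126 to 396 CPM, in 8 of 9 libraries, and neutrophil-like exceeded monocyte-like cells, at 5.41 to 110 CPM, in 8 of 8 (exact sign-flip permutation tests, adjusted p = 0.0469 each). Lymphoid classes had little Cd63, at 2.62 to 13.01 CPM in plasma cell-like and 7.39 to 32.4 CPM in T cell-like cells.

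Cd82 was found in every leukocyte class. Its mean was highest in NK and innate lymphoid-like cells, at 359 ± 120 CPM (SD, n = 8), above neutrophil-like cells at 220 ± 52.3 CPM (n = 9) in 8 of 8 shared libraries (exact sign-flip permutation test, adjusted p = 0.0469). Of the 607 NK and innate lymphoid-like cells, 49.3% lay near the cut of the gate and failed a stricter one. T cell-like cells held 119 to 210 CPM, cDC2-like cells 112 to 180, cDC1-like cells 100 to 127, resident macrophage-like cells 54.7 to 134 and plasma cell-like cells 27.3 to 58.8. In eosinophil-like cells no Cd82 UMI was seen in SPF colon 1 and GF colon 1, and other libraries reached 227 CPM. Those sums are shallow, and 0 UMIs there allow up to 94.4 CPM in SPF colon 1 and 69.4 CPM in GF colon 1 (3 counts of the sum).

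Cd53 and Cd37 are the leukocyte members of the family, and the data placed both in leukocyte classes but in different orders. Cd53 was highest in neutrophil-like cells, at 831 to 1381 CPM, above monocyte-like cells, at 690 to 1306 CPM, in 8 of 8 libraries (exact sign-flip permutation test, adjusted p = 0.0469). T cell-like cells held 489 to 1072 CPM, resident macrophage-like cells 403 to 685, B cell-like cells 309 to 596 and mature DC-like cells 163 to 427. Fibroblast-like cells, at 0 to 80.7 CPM, and epithelial-like cells, at 5.03 to 58.0 CPM, lay below every leukocyte class. Cd37 was highest in B cell-like cells, at 294 CPM in DSS colon, 331 in the library labelled Nlrc4-deficient DSS colon, 408 and 309 in GF colon, 309 in antibiotics colon, 381 and 342 in small intestine and 295 and 325 in SPF colon. B cell-like values exceeded those of every other class in all libraries, and NK and innate lymphoid-like cells, at 80.8 to 143 CPM, exceeded T cell-like cells, at 72.0 to 98.5 CPM, in 8 of 8 libraries (exact sign-flip permutation test, adjusted p = 0.0469). Mature DC-like cells had the lowest leukocyte level of Cd37, at 1.36 to 20.01 CPM.

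Over 110 sums of 1 class in 1 library, Cd53 and Cd37 had the highest correlation among the 7 members (Pearson r = 0.63 of log2(CPM + 1)), and Cd53 and Cd151 the lowest (r = -0.71). These sums share libraries and depth, so r is a description. All 7 genes matched the promoter table by symbol. The promoters of Cd53 and Cd37 are shown for their likeness, with Cd81 and Cd151 beside them, as RefSeq sequence of GRCm38.p6 running 5′ to 3′ on the gene's strand, 280 bases ending 30 bases after the start. Capitals mark an ETS box (GAGGAAGT, or ACTTCCTC on the other strand) or a GC box (GGGCGG, or CCGCCC on the other strand), motifs chosen after the sequences were seen and which do not overlap each other.
Cd53, chr3:106790120-106790399 (-): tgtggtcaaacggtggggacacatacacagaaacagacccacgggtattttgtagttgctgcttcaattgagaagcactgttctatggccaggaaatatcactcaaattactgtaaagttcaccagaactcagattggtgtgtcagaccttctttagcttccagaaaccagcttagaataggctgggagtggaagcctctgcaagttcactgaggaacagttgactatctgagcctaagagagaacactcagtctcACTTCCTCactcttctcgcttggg
Cd37, chr7:45238810-45239089 (-): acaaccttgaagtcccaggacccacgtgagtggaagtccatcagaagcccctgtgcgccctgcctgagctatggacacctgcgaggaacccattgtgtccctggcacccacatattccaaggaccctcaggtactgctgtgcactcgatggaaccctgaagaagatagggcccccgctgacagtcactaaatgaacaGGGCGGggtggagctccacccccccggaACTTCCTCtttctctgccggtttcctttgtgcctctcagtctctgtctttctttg
Cd81, chr7:143052500-143052779 (+): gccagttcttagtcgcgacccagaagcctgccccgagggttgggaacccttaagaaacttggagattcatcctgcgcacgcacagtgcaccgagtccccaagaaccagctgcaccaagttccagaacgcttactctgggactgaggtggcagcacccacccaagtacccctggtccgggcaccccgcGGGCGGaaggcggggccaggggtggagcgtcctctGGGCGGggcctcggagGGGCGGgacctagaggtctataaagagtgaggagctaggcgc
Cd151, chr7:141467112-141467391 (+): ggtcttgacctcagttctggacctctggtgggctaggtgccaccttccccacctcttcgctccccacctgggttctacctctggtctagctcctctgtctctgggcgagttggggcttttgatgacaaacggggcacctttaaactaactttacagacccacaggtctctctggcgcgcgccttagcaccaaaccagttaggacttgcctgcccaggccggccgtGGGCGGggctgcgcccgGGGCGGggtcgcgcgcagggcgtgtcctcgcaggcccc
The ETS box occurred in 926 of 32851 promoter windows of that length in the mouse table (2.82%), and the GC box in 11396 (34.7%). Cd53 and Cd37 each held 1 ETS box, with its first base 7 bases after and 25 bases before the start, and the windows of Cd81, Cd9 and Cd63 held none. Of the 4 windows of Cd82, 1 held an ETS box. Cd81 held 3 GC boxes, 17 CpG and 64.3% G and C, against medians of 6 CpG and 52.5% over all windows, and Cd53 held 3 CpG and no GC box. Cd151 has 2 windows, of which the one shown held 2 GC boxes. Whether a factor binds at any of these letters was not measured.

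Cd151 was near 0 in leukocytes. It was at 131 CPM in endothelial-like cells, which reached 20 cells only in GF colon 2, at 18.1 to 61.7 CPM in fibroblast-like cells and at 15.4 to 58.8 CPM in epithelial-like cells. Leukocyte classes stayed at or below 8.65 CPM, except 16.2 CPM in eosinophil-like cells of GF colon 2. That value came from a sum of 61786 UMIs and so rests on few UMIs. Epithelial-like cells exceeded resident macrophage-like cells in 8 of 8 libraries (exact sign-flip permutation test, adjusted p = 0.0469). Of epithelial-like cells 37.6% had a Cd151 UMI, against 2.41% of resident macrophage-like and 1.07% of T cell-like cells, and after thinning 2.97%, against 0.570% and 0.172%. Median depths were 16367.5, 4794 and 4767 UMIs. The low leukocyte shares cannot be told apart from free RNA and are not read as expression.

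On GRCm38, the build of the deposited counts, the genes lie at chr7:143052739-143067934 (Cd81), chr6:125460266-125494791 (Cd9), chr10:128900989-128912822 (Cd63), chr2:93419111-93463140 (Cd82), chr3:106759921-106790149 (Cd53), chr7:45233632-45239115 (Cd37) and chr7:141467392-141471473 (Cd151). All 7 are protein coding. Cd82 overlaps Mir7001 on its own strand, and Cd81, Cd9, Cd82, Cd37 and Cd151 overlap genes of the other strand, Tead2 in the case of Cd37. The strand setting of the counting is not given in the sources used here, so reads of such overlaps cannot be told apart from it.

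The first comparison asked how the tetraspanins differ between tissue macrophages and the monocytes of the same library. Cd81, Cd63 and Cd9 were higher and Cd53 and Cd37 lower in resident macrophage-like than in monocyte-like cells, over the 8 libraries with at least 20 cells of each. Cd81 had a lowest, median and highest value of 89.6, 290 and 662 CPM in resident macrophage-like cells, against 5.69, 7.41 and 19.7 CPM in monocyte-like cells, and Cd63 had 185, 317 and 827 CPM against 5.41, 49.7 and 110 CPM. The classes did not overlap for either gene. Monocyte-like sums of small intestine held 184732 and 202764 UMIs, so low levels in them rest on few UMIs. The log2 fold change was 4.66 ± 0.28 for Cd81 (SE, edgeR quasi-likelihood test fitted with library blocks, adjusted p = 1.54e-07) and 2.73 ± 0.25 for Cd63 (edgeR, adjusted p = 3.03e-06). Taken from unsupervised clusters instead of marker gates, the log2 fold change of Cd81 was 3.84, and without the library block it was 5.27. Cd9 had 140, 211 and 346 CPM against 48.7, 125 and 192 CPM and rose by 0.88 ± 0.17 on the log2 scale (edgeR, adjusted p = 0.00119). Cd9 was higher in 8 of 8 libraries although the ranges overlapped.

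Cd53 had 403, 538 and 685 CPM in resident macrophage-like cells against 690, 796 and 1306 CPM in monocyte-like cells, with no overlap, and fell by 0.65 on the log2 scale (SE 0.11, edgeR, adjusted p = 0.000424). Cd37 had 12.7, 21.7 and 25.4 CPM against 24.7, 29.7 and 40.3 CPM and fell by 0.69 (SE 0.15, edgeR, adjusted p = 0.00339). Cd82 differed by 0.34 ± 0.15 and did not pass the test (edgeR, adjusted p = 0.0954), and it was higher in 6 of 8 libraries. Cd151 had too few UMIs to be tested in this or any other class comparison. Thus 5 of 6 members tested were called, 3 higher and 2 lower, where 27.3% of all 8010 genes tested were called, 12.8% higher and 14.5% lower. The gates leave 18.3% of resident macrophage-like and 20.4% of monocyte-like cells near their cut, and with the stricter gate the same 5 genes were called and Cd82 as well.

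**Figure D2:**
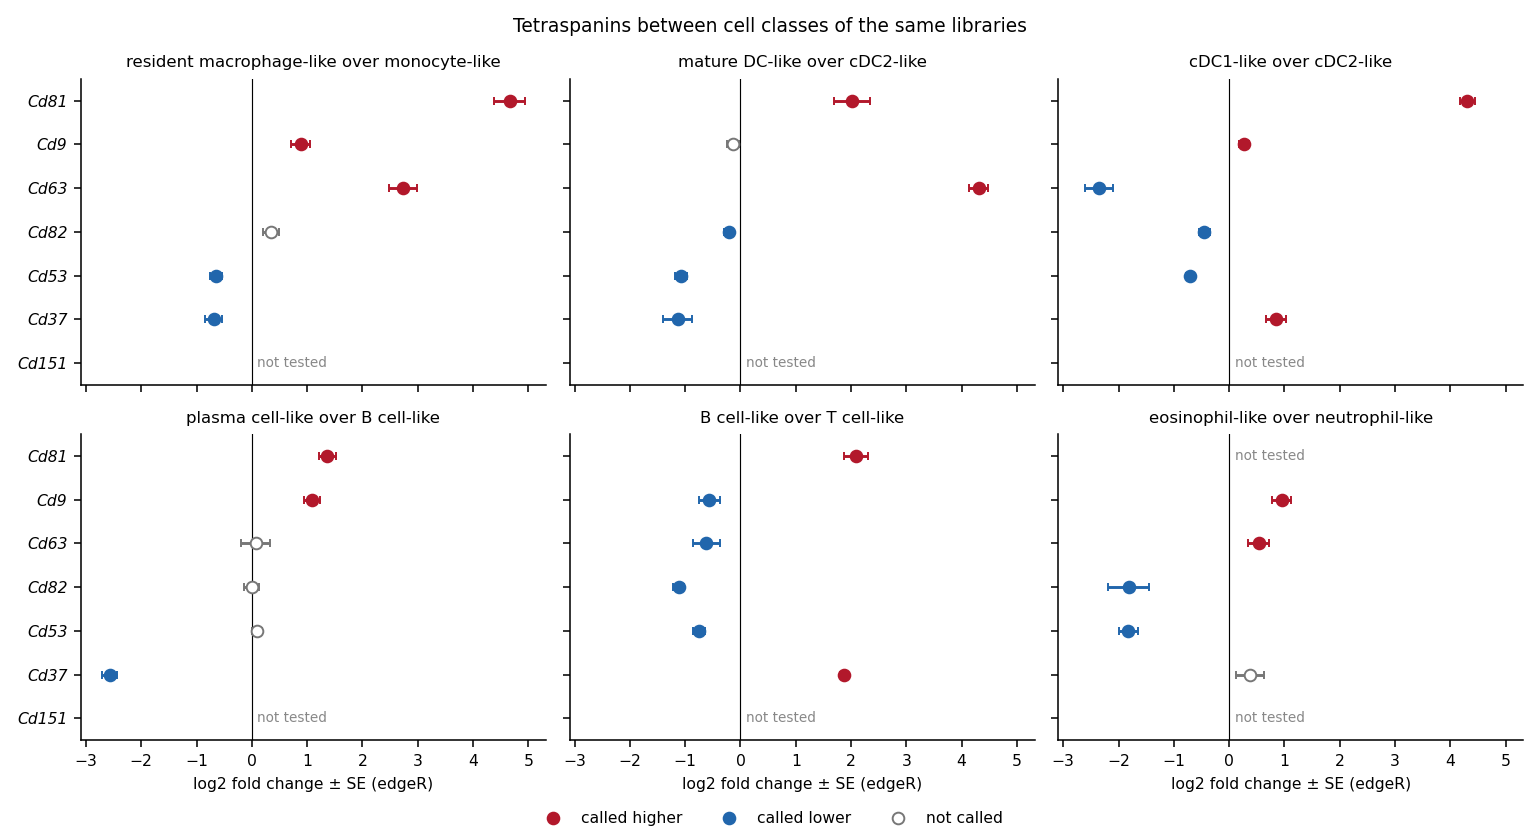
Log2 fold change of each tetraspanin with its SE between 2 classes of the same libraries, from edgeR fitted with library blocks, with filled points for genes called at a false discovery rate of 5%. Cd81 is to the right of 0 in every comparison in which it was tested, from 1.37 in plasma cell-like over B cell-like cells to 4.66 in resident macrophage-like over monocyte-like cells. The side depends on which class is named first.

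Within the dendritic cells, Cd81 and Cd63 split in opposite ways. In cDC1-like over cDC2-like cells, Cd81 was at 67.5, 105 and 234 CPM (lowest, median and highest of 9 libraries) against 1.92, 6.74 and 14.4 CPM, and Cd63 at 1.26, 5.51 and 9.80 CPM against 16.0, 27.1 and 36.8 CPM. Neither gene overlapped between the classes. Cd81 rose by 4.31 ± 0.14 (SE, edgeR, adjusted p = 2.85e-13), or by 3.14 with classes taken from clusters, and Cd63 fell by 2.36 (SE 0.25, edgeR, adjusted p = 5.06e-07). Cd37 rose by 0.85 ± 0.18 (edgeR, adjusted p = 0.000606) and was higher in 9 of 9 libraries, whereas Cd53 fell by 0.72 (SE 0.07, adjusted p = 1.4e-07) and was lower in all 9. Cd82 fell by 0.45 (SE 0.09, edgeR, adjusted p = 0.00074). The rise of Cd9, 0.27 ± 0.09 (edgeR, adjusted p = 0.0153), lost its call under 4 of 19 alternatives, with classes from clusters (0.11), with no library block (0.27), without GF colon 2 (0.23) and without the library labelled Nlrc4-deficient DSS colon (0.20). All 6 members tested were called, 3 in each direction, where 54.6% of 7898 genes were called, 26.6% higher and 28.0% lower. Without edgeR's scaling of library composition (TMM), the median of all genes moved to 0.12 and 60.3% of the calls were higher, against 48.7% with it.

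Mature DC-like cells are dendritic cells that have switched on the lymph node homing receptor Ccr7. Near the cut of the gate lay 32.7% of mature DC-like and 31.8% of cDC2-like cells. Cd63 was at 297, 581 and 864 CPM in mature DC-like cells against 16.0, 27.1 and 36.8 CPM in cDC2-like cells, and rose by 4.31 ± 0.17 (SE, n = 9, edgeR, adjusted p = 1.99e-11). Cd81 was at 2.71, 20.6 and 94.2 CPM against 1.92, 6.74 and 14.4 CPM, with overlap, higher in 9 of 9 libraries, and rose by 2.01 ± 0.32 (edgeR, adjusted p = 7.14e-05). Cd53 fell by 1.08 (SE 0.11, edgeR, adjusted p = 6.83e-07) and Cd37 by 1.14 (SE 0.27, edgeR, adjusted p = 0.00229), both lower in all 9 libraries. Cd53 fell by 1.94 with classes taken from clusters. Cd82 was lower by a little, -0.22 ± 0.08 (edgeR, adjusted p = 0.0435), a call that was lost under 12 of 19 alternatives and was -0.95 with classes taken from clusters (adjusted p = 0.00277), and Cd9 did not pass the test at -0.14 ± 0.12 (adjusted p = 0.361). Hence 5 of 6 members were called, 2 higher and 3 lower, where 44.6% of 7186 genes were called, 21.4% higher and 23.2% lower. Without GF colon 2, or without the library labelled Nlrc4-deficient DSS colon, 3 were called.

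In the B lineage, Cd37 and Cd81 parted. Cd37 was at 18.3, 31.9 and 38.4 CPM in plasma cell-like cells, the antibody-secreting stage, against 294, 328 and 408 CPM in B cell-like cells, with no overlap, and fell by 2.57 (SE 0.14, n = 8, edgeR, adjusted p = 1.22e-10). Cd81 was at 90.7, 107 and 166 CPM against 65.4, 87.9 and 104 CPM and rose by 1.37 ± 0.15 (edgeR, adjusted p = 6.51e-07), and Cd9 rose by 1.09 ± 0.14 (edgeR, adjusted p = 4.93e-06). Immunoglobulin transcripts took a median of 45.6% of plasma cell-like UMIs, and the fitted changes depend on how that is scaled. Without TMM, the median of all genes was -0.97, Cd81 rose by 0.38, Cd9 no longer passed (0.11), Cd37 fell by 3.54, Cd82 passed at -0.98 (adjusted p = 4.21e-07), and Cd63 and Cd53 had -0.86 and -0.90. With TMM, Cd63 had 0.07 ± 0.26, Cd82 had -0.00 ± 0.13 and Cd53 had 0.09 ± 0.09, none of which passed edgeR's test (adjusted p 0.834, 0.979 and 0.402). So 3 of 6 members were called, 2 higher and 1 lower, where 69.3% of 7961 genes were called, 35.4% higher and 34.0% lower, and 51.0% of the calls were higher with TMM against 14.7% without it. With immunoglobulin genes left out of the totals, the median level of Cd81 in plasma cell-like cells was 189 CPM.

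In B cell-like over T cell-like cells, Cd37 was at 294, 325 and 408 CPM against 72.0, 91.7 and 98.5 CPM, and Cd81 at 65.4, 84.6 and 104 CPM against 6.56, 19.1 and 32.9 CPM, both without overlap. Cd37 rose by 1.87 ± 0.08 (SE, n = 9, edgeR, adjusted p = 1.78e-11) and Cd81 by 2.09 ± 0.22 (edgeR, adjusted p = 1.03e-06). Cd82 was at 62.3, 81.8 and 106 CPM against 119, 172 and 210 CPM, again without overlap, and fell by 1.12 (SE 0.10, edgeR, adjusted p = 1.81e-07), while Cd53 fell by 0.75 (SE 0.11, edgeR, adjusted p = 2.34e-05). Cd9 at -0.57 ± 0.19 (edgeR, adjusted p = 0.0199) lost its call without GF colon 2 (-0.45) or small intestine 2 (-0.42), and Cd63 at -0.62 ± 0.24 (adjusted p = 0.0446) under 12 of 19 alternatives. All 6 members tested were called, 2 higher and 4 lower, where 53.6% of 8381 genes were called, 25.8% higher and 27.8% lower.

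Among granulocytes, the eosinophil-like class is the least secure. Of its 356 cells, 89.3% lay near the cut of the gate. Unsupervised clusters took the most common class of their gated cells, and none took the eosinophil-like class. A cluster of 2389 cells became neutrophil-like from 388 of its 818 gated cells (47.4%). That naming does not show that no cluster held eosinophils. The summed neutrophil markers of the eosinophil-like class, 3641 to 9824 CPM, exceeded its summed eosinophil markers, 2573 to 3167 CPM. The neutrophil marker Retnlg was also among its 10 leading genes, beside Siglecf, Ccr3 and Alox15, and the part of these cells in the values below was not tested. Over 6 libraries, Cd9 was at 2233, 3300 and 4023 CPM in eosinophil-like cells against 506, 1306 and 2574 CPM in neutrophil-like cells, higher in all 6, and rose by 0.95 ± 0.18 (SE, edgeR, adjusted p = 0.00018). Cd53 fell by 1.82 (SE 0.18, edgeR, adjusted p = 4.33e-08) and Cd82 by 1.82 (SE 0.36, adjusted p = 0.000331). Cd63 rose by 0.53 ± 0.18 (edgeR, adjusted p = 0.0207), a call lost under 10 of 15 alternatives, and Cd37 had 0.38 ± 0.25 (adjusted p = 0.226). Cd81 had too few UMIs for the test, at 32.4 to 77.6 CPM against 26.4 to 77.5 CPM. Here 4 of 5 members tested were called, 2 higher and 2 lower, where 51.6% of 1688 genes were called, 24.7% higher and 26.9% lower. Without TMM the median of all genes was 0.32 and 64.6% of the calls were higher, against 47.9% with it, and Cd37 passed at 0.64. When the 323 neutrophil-like cells with a UMI of an eosinophil marker were left out, 4 members were again called.

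Other members of the family and their binding partners moved in both directions in these comparisons. Of 24 other tetraspanins, 8 were tested in resident macrophage-like over monocyte-like cells, with 4 higher and 1 lower and a median of 0.56, beside 12.8% of all genes higher, 14.5% lower and a median of 0.01. Tspan33, which in mice promotes surface delivery of the sheddase ADAM10, rose by 2.08 ± 0.24 (SE, edgeR, adjusted p = 2.35e-05) and Tspan4, a tetraspanin of migrasomes, by 1.74 ± 0.32 (edgeR, adjusted p = 0.000934). Of 18 partners that were not class markers 14 were tested, 4 higher and 4 lower, among them Vcam1, an adhesion receptor and ligand of the integrin subunit Itga4, at 3.03 ± 0.35 (edgeR, adjusted p = 2.54e-05), Itga6, the laminin-binding integrin subunit, at 1.79 ± 0.27 (adjusted p = 0.000187), and Itga4 at -0.76 ± 0.12 (adjusted p = 0.000289). In cDC1-like over cDC2-like cells, 5 of 6 other tetraspanins tested fell and 1 rose, with Tspan14 at -0.99 ± 0.13 and Tspan33 at 0.93 ± 0.13, and 9 of 13 partners fell and 2 rose, with Lamp1 and Lamp2, the lysosomal membrane proteins, at -1.22 ± 0.10 and -1.03 ± 0.09, beside 26.6% of all genes higher and 28.0% lower. In mature DC-like over cDC2-like cells, 3 of 6 rose and 2 fell, with Tspan3 at 2.98 ± 0.25, and 4 of 12 partners rose and 3 fell, with Lamp1 at 1.16 ± 0.14 and the syntenin gene Sdcbp at -0.53 ± 0.09, beside 21.4% of all genes higher and 23.2% lower.

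In plasma cell-like over B cell-like cells, 1 of 6 other tetraspanins rose, Tspan13 at 1.28 ± 0.09, and 1 fell, Tspan14 at -1.01 ± 0.12, while 4 of 13 partners rose and 6 fell, with the hyaluronan receptor Cd44 at 2.00 ± 0.12 and Lamp1 at -1.43 ± 0.10, beside 35.4% of all genes higher and 34.0% lower. In B cell-like over T cell-like cells, 3 of 6 rose and 2 fell, with Tspan13 at 0.93 ± 0.11 and Tspan3 at -1.27 ± 0.16, and 4 of 13 partners rose and 7 fell, with Lamp2 at 1.06 ± 0.12 and Pdcd6ip, an adaptor of endosomal sorting, at -0.69 ± 0.08, and a median of -0.50, beside 25.8% of all genes higher and 27.8% lower. In eosinophil-like over neutrophil-like cells, the 1 other tetraspanin tested was not called, and 2 of 9 partners rose and 3 fell, with Ifitm1, an interferon-induced membrane protein, at -2.72 ± 0.26 and Itga4 at 1.00 ± 0.20, beside 24.7% of all genes higher and 26.9% lower. The values of this and the preceding paragraph are edgeR log2 fold changes with their SE, with calls at an adjusted p of 0.05 over all genes.

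The next comparisons asked whether the microbiota or the gut segment changed the tetraspanins within a class. For 7 classes with at least 20 cells in each of 6 libraries, GF colon and small intestine were set against SPF colon, 2 libraries each, in 14 comparisons that share the SPF libraries. None of 80 member tests passed edgeR's test with adjustment over all genes, 7 (8.75%) had an unadjusted p under 0.05 where 6.23% of all gene tests did, and DESeq2 called 0 members with 7 under that unadjusted p. Over all genes, 0.0623% were called between small intestine and SPF colon in cDC1-like, 0.181% in cDC2-like and 0.364% in mature DC-like cells. Each other comparison called 0%. In simulated counts for GF over SPF colon in resident macrophage-like cells, 14% of 2-fold and 75% of 4-fold changes were called. An absent call therefore does not show that a level was unchanged. In sums over cells, a lower level per class can mean fewer cells that carry the RNA or less RNA in each, and these cannot be told apart.

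Resident macrophage-like cells of GF colon held 495 and 181 CPM of Cd81, against 210 and 662 CPM in SPF colon, and those of small intestine held 492 and 369 CPM. The groups overlapped, and the log2 fold changes of -0.33 ± 0.57 (GF over SPF) and -0.10 ± 0.57 (small intestine over SPF) were within the spread between libraries. Cd63 in the same class was at 267 and 227 CPM in small intestine and at 548 and 827 CPM in GF colon, against 349 and 616 CPM in SPF colon. Small intestine lay below both SPF libraries, with a log2 fold change of -1.04 ± 0.36 (edgeR, adjusted p = 0.539). In B cell-like cells, Cd81 was at 65.4 and 84.6 CPM in GF colon and at 81.1 and 68.4 CPM in small intestine, against 94.8 and 96.6 CPM in SPF colon. The SPF values were above the others, and neither difference passed edgeR's test (log2 fold changes of -0.18 and -0.21).

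The 6 further values with an unadjusted p under 0.05 were spread over 3 classes. In cDC2-like cells Cd37 was at 27.9 and 22.5 CPM in GF colon, against 13.3 and 14.3 CPM in SPF colon, without overlap (log2 fold change 0.91 ± 0.30, edgeR, adjusted p = 1.0). In mature DC-like cells Cd63 was at 659 and 864 CPM in GF colon and 302 and 297 CPM in small intestine, against 581 and 458 CPM in SPF colon, so that GF libraries lay above and small intestine libraries below (0.73 ± 0.25 and -0.69 ± 0.25, edgeR, adjusted p = 0.408 and 0.266). In the same cells Cd81 was at 2.71 and 8.30 CPM in small intestine, against 43.7 and 19.1 CPM in SPF colon (-2.29 ± 0.90, edgeR, adjusted p = 0.307). GF colon spanned 20.6 to 94.2 CPM of Cd81 there. The small intestine and SPF values of Cd81 rest on few UMIs. Their sums held 737870 and 723007 UMIs in small intestine and 320317 and 576767 in SPF colon. In B cell-like cells Cd9 was at 16.6 and 20.4 CPM in small intestine, against 45.4 and 62.3 CPM in SPF colon (-1.33 ± 0.41, edgeR, adjusted p = 1.0), and Cd63 at 2.08 and 4.66 CPM against 29.9 and 5.40 CPM (-1.71 ± 0.76, adjusted p = 1.0). Both small intestine libraries were below both SPF libraries for either gene, and Cd9 passed at -1.47 when SPF colon 1 was left out. For Cd63 the closest values were 4.66 and 5.40 CPM. The 2.08 CPM of small intestine 1 came from a sum of 480718 UMIs and so rests on few UMIs.

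Across classes the small shifts of a gene had mixed signs in most cases, without any call. In GF over SPF colon, Cd81 was positive in 5 of 7 classes and Cd9 in 6 of 7. The shifts had 1 sign only in the cases that follow. Cd53 in GF over SPF colon had log2 fold changes of -0.63 to -0.06 in 7 of 7 classes, negative also without TMM. Cd37 in the same comparison had 0.04 to 0.91 in 6 classes, of which T cell-like cells turned to -0.12 without TMM. Cd63 in small intestine over SPF colon had -1.71 to -0.13 in 6 classes, negative also without TMM. The classes come from the same libraries, so these signs are not separate observations. None of the other tetraspanins or partners was called in these 14 comparisons.

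**Figure D3:**
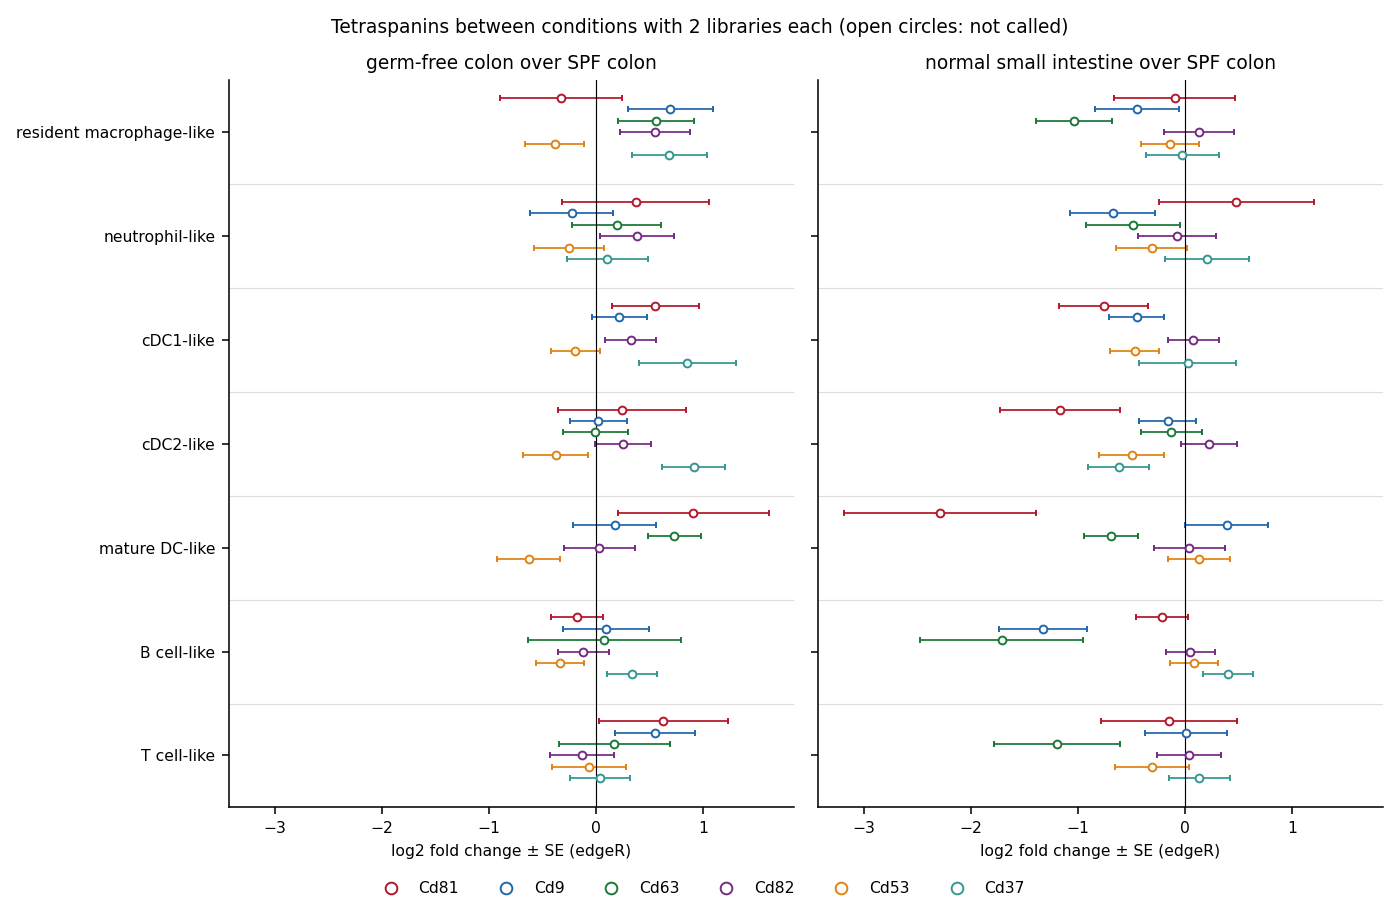
Log2 fold change with SE (edgeR) of the tetraspanins in GF colon (left) and normal small intestine (right) over SPF colon in 7 classes, 2 libraries per condition. All points are open since none was called. The furthest is Cd81 in mature DC-like cells of small intestine at -2.29 (SE 0.90), a value that rests on few UMIs.

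Antibiotics colon, DSS colon and the library labelled Nlrc4-deficient DSS colon have 1 library each, so their differences have no replicate check, and the values are ratios of levels without a test. The ratios depend on the SPF colon library. Pairs past a fold of 2 against the mean of both were also set against each SPF library alone. Past it against each were 0 of 3 (antibiotics colon), 3 of 11 (DSS colon) and 2 of 8 (the library labelled Nlrc4-deficient DSS colon). For all genes the share against a single SPF library was not counted, so these and later counts against 1 SPF library lack it. In resident macrophage-like cells Cd81 was at 418 CPM in antibiotics colon (exact Poisson 95% interval 370 to 471, counting error only), against 210 and 662 CPM in SPF colon, and Cd63 at 486 CPM against 349 and 616 CPM. In antibiotics colon 3 of 68 member and class pairs with at least 20 UMIs passed a fold of 2, where 9.60% of all gene and class pairs did, and 11 pairs did against SPF colon 1 alone. These were Cd63 in B cell-like cells, at 8.28 CPM against a mean of 17.6 CPM (0.470-fold), Cd63 in T cell-like cells, at 8.69 against 23.4 CPM (0.372-fold), and Cd81 in NK and innate lymphoid-like cells, at 64.3 CPM (interval 32.1 to 115) against 16.7 CPM (3.85-fold, from 11 UMIs in antibiotics colon).

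DSS colon differed from SPF colon in 11 of 71 pairs, 4 higher and 7 lower, where 12.4% of all gene and class pairs passed a fold of 2, and in 5 pairs against SPF colon 1 and 16 against SPF colon 2 alone. Past the fold against each SPF library were Cd81 in fibroblast-like, Cd9 in neutrophil-like and Cd63 in T cell-like cells. In resident macrophage-like cells Cd81 was at 113 CPM in DSS colon (interval 100.02 to 128), against 210 and 662 CPM in SPF colon, 0.260-fold of their mean but 0.539-fold of SPF colon 1 and 0.171-fold of SPF colon 2. In cDC1-like cells it was at 69.7 CPM in DSS colon, against 69.8 and 234 CPM in SPF colon, so that the ratio of 0.458 came from 1 SPF library. Conversely, Cd81 was higher in DSS colon in the 43 fibroblast-like cells, at 218 CPM (interval 170 to 275) against 77.6 and 47.5 CPM (3.48-fold), and in mature DC-like cells, at 66.5 CPM against 43.7 and 19.1 CPM (2.12-fold, past a fold of 2 for SPF colon 2 only). Cd9 in neutrophil-like cells was at 506 CPM in DSS colon (interval 474 to 539), against 1077 and 2215 CPM in SPF colon (0.307-fold), and Cd63 there at 158 CPM against 252 and 396 CPM (0.487-fold, past it for SPF colon 2 only). Neutrophil-like cells of DSS colon also held 1260 CPM of summed macrophage markers, against 387 and 185 CPM in SPF colon, and 2372 CPM of the summed markers of the monocyte-like class, against 1131 and 596 CPM. The part of these markers' cells in the ratios was not tested.

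The library labelled Nlrc4-deficient DSS colon differed from SPF colon in 8 of 68 pairs, 1 higher and 7 lower, where 15.5% of all pairs passed a fold of 2. Cd81 was at 89.6 CPM in its resident macrophage-like cells (interval 81.4 to 98.3), against 210 and 662 CPM in SPF colon (0.205-fold of the mean, and 0.426-fold and 0.135-fold of each library), and Cd63 at 185 CPM against 349 and 616 CPM (0.384-fold of the mean, 0.532-fold of SPF colon 1). Cd81 in neutrophil-like cells, at 10.3 CPM against 31.0 and 37.7 CPM, was also past the fold against each SPF library. Those SPF values rest on few UMIs, in sums of 258143 and 265052 UMIs. Against DSS colon, 10 of 72 pairs passed, 6 higher and 4 lower, where 21.4% of all pairs did. Cd81 in resident macrophage-like cells was at 89.6 CPM in the library labelled Nlrc4-deficient DSS colon against 113 CPM in DSS colon (0.789-fold), within a fold of 2. Cd9 in neutrophil-like cells was at 1227 CPM against 506 CPM in DSS colon (2.43-fold), Cd81 in fibroblast-like cells at 77.6 CPM against 218 CPM (0.356-fold) and Cd81 in epithelial-like cells, of which this library had 20, at 196 CPM against 67.6 CPM (2.90-fold).

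**Figure D4:**
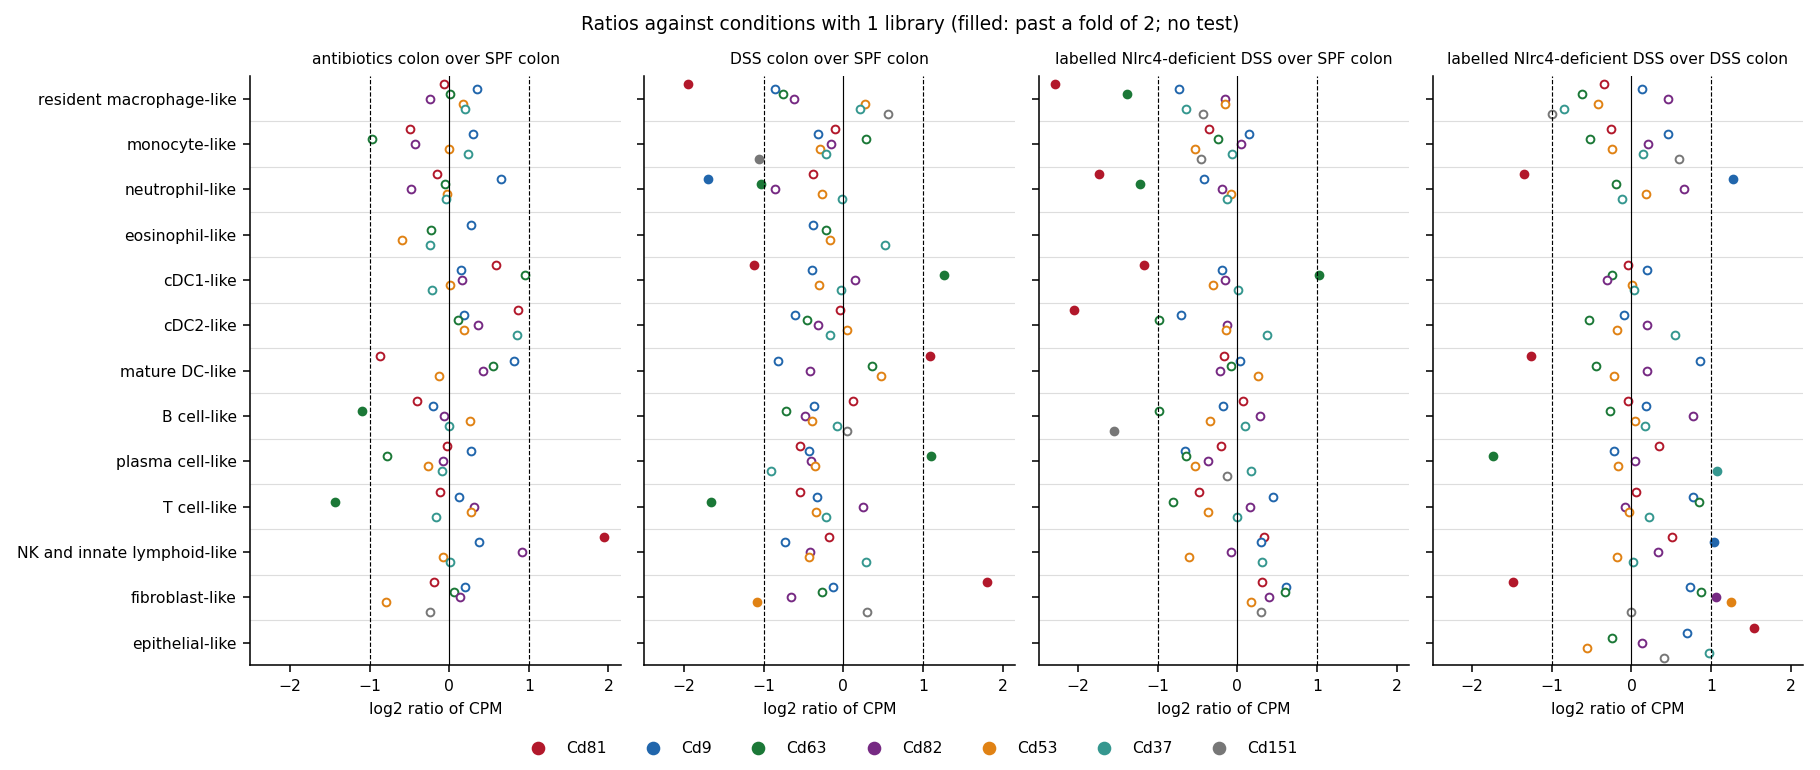
Log2 ratio of the level of each tetraspanin in 13 classes for conditions with 1 library, against the mean of both SPF colon libraries or against DSS colon, with filled points past a fold of 2 (dashed lines) and no test. In resident macrophage-like cells Cd81 is at 0.260-fold of the SPF mean (0.539-fold of SPF colon 1) in DSS colon and 0.205-fold in the library labelled Nlrc4-deficient DSS colon, and at 0.959-fold in antibiotics colon.

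The low Cd81 of resident macrophage-like cells in both DSS libraries came with other markers. Their summed monocyte markers were 2605 CPM in DSS colon and 2369 CPM in the library labelled Nlrc4-deficient DSS colon, against 483 to 1685 CPM in the other 7 libraries. The summed macrophage markers were 7601 and 5930 CPM against 7934 to 12112 CPM, and the mannose receptor gene Mrc1 was at 129 and 76.3 CPM against 226 to 650 CPM. SPF colon 1, which had the highest monocyte marker sum outside DSS, had 210 CPM of Cd81, whereas GF colon 2, with the lowest sum of 483 CPM, had 181 CPM. The part of monocyte-derived RNA in the Cd81 level was not tested. Over the same cells Cd53 was at 685 and 512 CPM in the DSS libraries, inside the 403 to 642 CPM of the others in 1 case and above it in DSS colon.

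**Figure D5:**
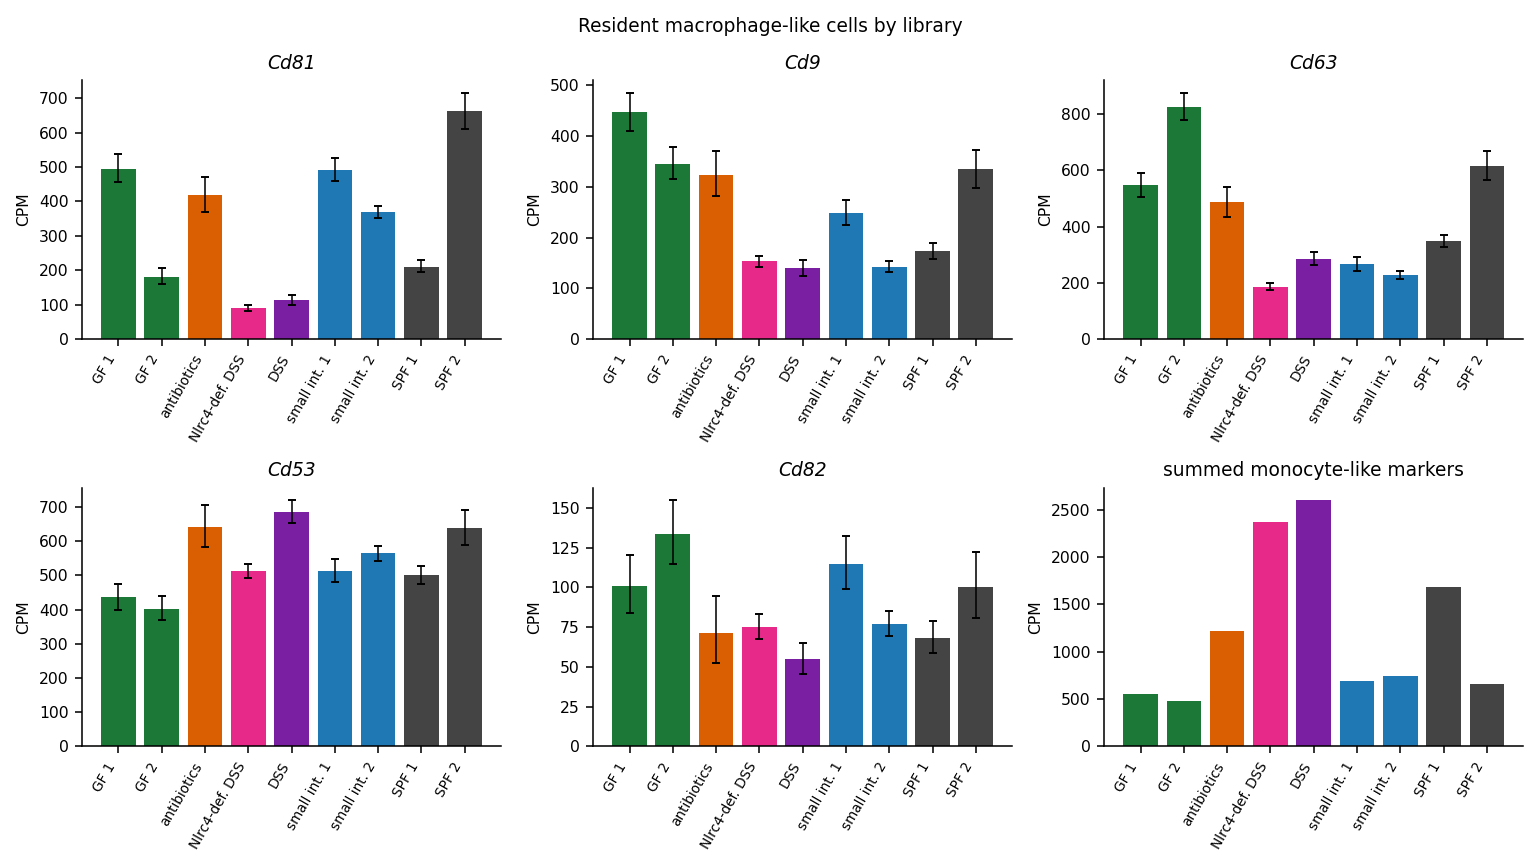
Levels (CPM) of Cd81, Cd9, Cd63, Cd53 and Cd82 in resident macrophage-like cells of each library, with exact Poisson 95% intervals that cover counting error only, and the summed CPM of monocyte markers in the same cells. Both DSS libraries have the lowest Cd81 (113 and 89.6 CPM) and the highest marker sums (2605 and 2369 CPM), and SPF colon alone spans 210 to 662 CPM of Cd81.

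The genes whose pattern was most like that of each member, among 3089 genes of at least 50 CPM over the 110 sums, differed widely in likeness. Cd53 was closest to Ptprc, which encodes the pan-leukocyte phosphatase CD45 (r = 0.93), then Arhgdib (0.92) and Dock2 (0.91), and Cd37 to Stk17b (0.84), Ube2b (0.82) and Ptk2b (0.81). Cd9 was closest to Klf7 (0.79), Lasp1 (0.71) and Zyx (0.71), and Cd63 to Dstn (0.79), Mapk3 (0.77) and Tcn2 (0.75). Cd151 was closest to Nfib (0.82), Timp3 (0.78) and Tmem59 (0.77), and Cd82 to Kdm2b, Gsk3a and Rchy1 (0.71 each). Cd81 had no close match, with Hes1 (0.47), Rhob (0.45) and Gas6 (0.43) at the top. Its highest correlation with another member was 0.36 with Cd151, and Cd9 and Cd63 had 0.56.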

How the data were processed

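The authors deposited raw UMI counts of genes in cells, made from 10x Genomics 3' V3 libraries with Cell Ranger 3.0.2 (file headers) and, in the submitters' processing notes, STAR 2.5.1b and mm10, without normalization. All values were whole. Cells with over 15% mitochondrial UMIs or under 200 genes were left out. A cell took the class with the largest share of its markers above their mean over all kept cells (114 markers in all), given at least 2 such markers and a lead of 0.1 in share. Cells with no lead between classes, doublets included, stayed ungated (5674 cells), and no doublet caller was run. UMIs were summed per library and class (at least 20 cells) and given as CPM. For tests of the sums, edgeR 4.0.16 in R 4.3.3 used TMM scaling, its low-count filter filterByExpr and the quasi-likelihood test, at a false discovery rate of 0.05 (Benjamini-Hochberg over all genes). Class comparisons had library blocks, and condition comparisons had the group alone. Neighbouring classes in each member's order were compared on log2(CPM + 1) by exact sign-flip permutation over libraries with SciPy 1.17.1. The alternatives were DESeq2 1.42.0, no filter on low counts, no TMM, no immunoglobulin genes, stricter cell and gate filters (10% and 500 genes, 3 markers and a lead of 0.2), at least 50 cells, classes from clusters (Leiden, leidenalg 0.10.2 in scanpy 1.11.5), no library block, a replicate block, and each library or the SPF colon libraries left out. The test scripts were tested on simulated data with known changes. Depth per library was 13243317 to 64453601 UMIs, and Poisson and count intervals at 95% cover counting error only. The members and the gene lists were chosen with earlier results of these data known. Genes named in each comparison are all 7 members and some of the up to 4 called genes with the smallest adjusted p of each list. Not all of those are named, and the first in rank is left out in some comparisons. Partners that were also class markers are left out of the list counts. Promoters are from the RefSeq table of GRCm38.p6, and gene positions from GENCODE vM21 on GRCm38.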

Additional observations from a re-analysis of the deposited data

Results flagged for a closer look

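In 1 comparison the per-library differences of a tetraspanin had opposite signs in 2 conditions. Cd37, as the log2(CPM + 1) difference of eosinophil-like over neutrophil-like cells, was at -0.0533 and -0.0866 in GF colon, against 0.780 and 0.790 in SPF colon. The difference between the conditions was not tested. The values in GF colon were 139 and 97.1 CPM in eosinophil-like cells and 144 and 103 CPM in neutrophil-like cells, and those in SPF colon 220 and 183 CPM and 128 and 106 CPM. Eosinophil-like cells numbered 43 and 50 in GF colon and 29 and 71 in SPF colon. Their sums held 43253 and 61786 UMIs in GF colon and 31794 and 87256 in SPF colon, so these Cd37 values rest on few UMIs. The eosinophil-like class is also the least secure.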

How the results depend on the processing

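The number of members called kept within 1.5 times its value in 299 of 316 alternatives. Many of these belong to the 14 condition comparisons, where the main count was 0, and say little about the class calls. With 1 SPF colon library left out (chosen after seeing the data), the pairs past a fold of 2 numbered 3 to 11 in antibiotics colon, 5 to 16 in DSS colon and 10 to 11 in the library labelled Nlrc4-deficient DSS colon. The number of members called was 5 without TMM in plasma cell-like over B cell-like cells, where Cd63 (-0.86) and Cd53 (-0.90) reversed. In mature DC-like over cDC2-like cells it was 3 to 5 with 1 library left out. Without a filter on low counts it was 1 (Cd81) in mature DC-like and 1 (Cd9) in B cell-like cells of small intestine over SPF colon, where Cd9 also passed without SPF colon 1 (0 to 1 members with 1 library left out). Of 1688 values of single members under alternatives, 1637 kept their side of the threshold, 42 lost the call, 7 gained one and 2 reversed. A change of sign was counted only where a call was made. The values belong to 115 member results, of which 80 are condition tests without a call. Of 84 neighbouring pairs, 14 differed in the main order, and 0 to 0 with 1 library left out, since fewer libraries allow no smaller p. Same-numbered libraries share only a number in the labels, with deviations that correlated at 0.11 to 0.51 (GF and SPF) and 0.01 to 0.37 (small intestine and SPF) over 7 classes, and with a replicate block 0 members were called in 14 fits. Eosinophil-like cells could not be compared with classes from clusters. Depth limits Cd151, which was tested in none of the 6 class comparisons, and Cd82 in eosinophil-like cells. With immunoglobulin genes out of the totals, plasma cell-like medians were 189 (Cd81), 78.3 (Cd9), 72.6 (Cd82), 417 (Cd53), 56.8 (Cd37) and 3.12 CPM (Cd151).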
